A study of Homo sapiens with 6 samples.

Results

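The 58 genes described here encode the machinery of mitosis: the cyclins and kinases of mitotic entry, the spindle checkpoint, the kinetochore, the kinesins and microtubule-binding proteins of the spindle, condensin, and the proteins that divide the cell. They were taken from a list of gene symbols, and each was read by its brightest probe set among those that the platform annotation assigns to 1 gene. All 58 had such a probe set, of 19775 genes with one in the table, and all 58 were among the 12206 genes tested, which lie at or above the median over the whole table (6.03 in log2 signal, 65.5 in signal). The series concerns miR21 passed from stromal cells to ovarian cancer cells and resistance to taxol. The cells were SKOV3, an established line from a human ovarian tumour. After 24 h with 5 nM of miR21 precursor, RNA was taken for 3 arrays, and the 3 control arrays came from SKOV3 cells given the negative control precursor instead. The cells of both groups were transfected and shared the line and the medium, and the comparison holds no untransfected cells. The titles number the arrays 1 to 3 in each group, and nothing in the labels says whether a number stands for a separate culture, so the p-values rest on the spread among these arrays, and that spread may be technical.

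A cell enters mitosis when cyclin-bound CDK1 becomes active, and the chromosomes then condense and attach through their kinetochores to spindle microtubules. The spindle checkpoint holds back the anaphase-promoting complex (APC/C), a ubiquitin ligase, until every kinetochore is attached. Taxol, the drug in the series' title, stabilises microtubules and keeps this checkpoint engaged. Most of these genes are transcribed late in the cell cycle, through a promoter element called CHR (cell cycle genes homology region), often together with CCAAT boxes, to which the MuvB complex with B-MYB and FOXM1, and the factor NF-Y, are known to bind. A pool of cells with fewer cells in G2 and mitosis and a pool with less of each transcript per cell cannot be told apart in such bulk RNA.

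The precursor supplied to the cells yields miR-21, whose mature 5p strand in RefSeq (GRCh38.p14, chr17:59841273-59841294, plus strand) is shown with its seed, bases 2 to 8, in capitals, since target sites pair with the seed.
hsa-miR-21-5p: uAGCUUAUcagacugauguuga

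Promoters of the mitotic genes were searched for the CHR and the CCAAT box, the elements described above for late cell cycle genes. No promoter sequence was used to choose the genes. Genes of this class are known for these elements, however, so the shares are a description and not an independent finding. RefSeq promoter windows (GRCh38.p14, 250 bases before the start of transcription to 50 after it) were at hand for 50 of the 58 genes, the missing entries being AURKA, BIRC5, BUB3, FOXM1, KNL1, TPX2, TTK and UBE2C. The CHR, searched as TTTGAA or TTCGAA on both strands, stood in 35 of the 50 windows (70.0%), against 11.1% of the 9970 tested genes with a window and 16.6% of all 27305 windows. The CCAAT box, searched as CCAAT on both strands, stood in 37 of the 50 (74.0%), against 36.7% of the tested genes and 35.7% of all windows. Both stood in 28 of the 50 (56.0%), against 4.77% of the tested genes and 6.58% of all windows. In some promoters the motifs overlap by 1 base, as TTTGAATTGG does in CDCA8 and MKI67. A match is a description of letters in this window and not a binding site. Stretches of 150 bases before the start, 5′ to 3′ on the strand of the gene, are shown for 3 genes with a CHR near the start and lower values under miR21 on numbers 1 and 2 (ANLN, PRC1, KIF4A), for the proliferation marker MKI67, and for PLK1 and CCNB2, which hold the same motifs and differed little. The PLK1 and CCNB2 differences are given with their roles. These 6 were chosen after their values were seen, and capitals mark CHR and CCAAT letters on either strand.
ANLN (chr7:36389712-36389861, plus strand): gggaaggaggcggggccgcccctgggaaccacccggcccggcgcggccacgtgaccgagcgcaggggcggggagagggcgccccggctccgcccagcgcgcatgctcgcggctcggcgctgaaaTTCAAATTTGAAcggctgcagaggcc
PRC1 (chr15:90994536-90994685, minus strand): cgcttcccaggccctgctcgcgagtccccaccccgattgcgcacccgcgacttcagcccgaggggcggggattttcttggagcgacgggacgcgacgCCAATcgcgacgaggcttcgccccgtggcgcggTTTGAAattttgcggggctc
KIF4A (chrX:70289954-70290103, plus strand): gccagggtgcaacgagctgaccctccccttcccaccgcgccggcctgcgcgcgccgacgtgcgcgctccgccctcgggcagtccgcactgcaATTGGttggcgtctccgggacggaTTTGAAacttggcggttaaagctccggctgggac
MKI67 (chr10:128126424-128126573, minus strand): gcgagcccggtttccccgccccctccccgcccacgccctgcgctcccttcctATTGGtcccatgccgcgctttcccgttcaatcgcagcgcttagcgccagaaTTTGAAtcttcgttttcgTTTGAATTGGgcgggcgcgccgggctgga
PLK1 (chr16:23678739-23678888, plus strand): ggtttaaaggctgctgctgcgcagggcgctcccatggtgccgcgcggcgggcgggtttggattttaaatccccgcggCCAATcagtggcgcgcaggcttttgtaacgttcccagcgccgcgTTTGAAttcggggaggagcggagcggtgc
CCNB2 (chr15:59104996-59105145, plus strand): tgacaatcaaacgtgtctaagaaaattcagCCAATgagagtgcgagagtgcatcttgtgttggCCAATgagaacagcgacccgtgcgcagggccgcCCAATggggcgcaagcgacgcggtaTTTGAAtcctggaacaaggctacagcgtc

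Counted from the start of transcription, the CHR began at position -20 in PRC1, -34 in KIF4A and -29 in PLK1 and CCNB2. ANLN has adjacent copies on opposite strands, and MKI67 has 2 copies on its own strand. Mitotic genes with and without the motifs had similar differences, which were not tested against each other. The median log2 difference, miR21 minus control, was -0.48 for the 35 genes with a CHR and -0.42 for the 15 without. With a CCAAT box it was -0.48 (37 genes) and without one -0.36 (13 genes). Tested genes outside the 58 that hold both motifs, 448 in all, had a median difference of -0.08, and the 5673 with neither had -0.0023.

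The median signal set the arrays of number 1 apart from the others in both groups. The median signal of all probe sets was 117 on the miR21 array and 125 on the control array of number 1, and 55.2 to 61.9 on the other 4 arrays. The ratio of 3′ to 5′ signal of the ACTB control probe sets, a sign of RNA quality, was 1.96, 3.32 and 1.36 on the miR21 arrays of numbers 1, 2 and 3, against 1.79, 2.885 and 1.29 on the control arrays. For GAPDH it lay between 0.899 and 1.07 on all 6. These ratios were higher for ACTB under miR21 in all 3 numbers, and their part in the results was not tested. Of 10 epithelial and ovarian cancer markers, 8 lay above the filter, among them PAX8, ERBB2 and 4 keratins. WT1, which marks serous carcinoma, and MUC16 lay below it, although the series' title names high-grade serous cancer. Fibroblast markers summed to signals of 417 to 1410.3 on the miR21 arrays, against 473 to 1273 on the control arrays, with 3 of 8 above the filter and DCN, LUM and COL3A1 below it, and 0 of 4 immune markers passed it. The 8 epithelial markers had a median log2 difference, miR21 minus control, of 0.16, with KRT7 at -0.60 and CDH1 at 0.49, and the 3 fibroblast markers had -0.35, with COL1A2 at -0.52 and THY1 at -0.35, none of them past the test described next.

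Most mitotic genes had lower signals with miR21 on the arrays of numbers 1 and 2, and as a group they were near level on those of number 3. The median log2 difference over the 58 was -0.46 (quartiles -0.58 and -0.26), against -0.01 over all 12206 tested genes (quartiles -0.26 and 0.23). Within numbers 1, 2 and 3 the median was -0.65, -0.67 and -0.02, against -0.03, 0.00032 and -0.00028 over all tested genes. On the difference of the group means, 53 of the 58 lay below 0, against 51.2% of all tested genes, and 5 above 0, against 48.8%. In number 1, 53 of the 58 were lower, against 52.1% of tested genes, in number 2 it was 55, against 50.0%, and in number 3 it was 32, against 50.0%. Only numbers 1 and 2 had mitotic genes over 1 log2 unit lower, 9 in number 1 (5.88% of tested genes) and 13 in number 2 (7.51%), while number 3 had 0 (1.49%).

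No mitotic gene passed the test. In limma without a block for the replicate number, 0 of the 58 had an adjusted p under 0.05 (0.0% of the tested genes did) and 0 an unadjusted p under 0.05 (2.44% in either direction, 1.26% lower), the smallest being 0.0559. The spread between the numbers enters the error of this fit, so its count of 0 does not show that the genes were level. On simulated data with the arrays' own levels it called none of the differences put in, of any size. There the noise was the same for every gene and a difference the same in all 3 numbers, unlike here. The simulation therefore does not measure the power for these genes. With the replicate number as a block, 0 of the 58 passed (0.0328% of tested genes did), with adjusted p between 0.128 and 0.969. Without adjustment, the block gave p under 0.05 to 27 of the 58 on the lower side, against 10.3% of tested genes, and 1 on the higher side, against 9.81%. The median SE of a mitotic gene was 0.47 without the block and 0.19 with it, and over all tested genes 0.42 and 0.20. The groups overlapped for all 58, whereas 6.65% of tested genes had groups that did not (3.27% lower, 3.38% higher). Leaving out both arrays of number 3, the block fit called 44 of the 58, 42 lower (17.0% of the 12338 genes tested there) and 2 higher (16.2%). Without number 1 or number 2 it called 0 (0.336% of tested genes without number 1, made up of 0.148% lower and 0.189% higher, and 0.0% without number 2). Each of these fits rests on 2 pairs of arrays, and the pooled degrees of freedom, 294 without number 3 but 24.9 and 6.48 without numbers 1 and 2, make the counts not comparable with one another. Single arrays weighed heavily: of the 28 genes named by rule, 27 had a difference that moved by over 1.5 times or changed sign when 1 array was left out, NCAPH being the exception.

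**Figure D1:**
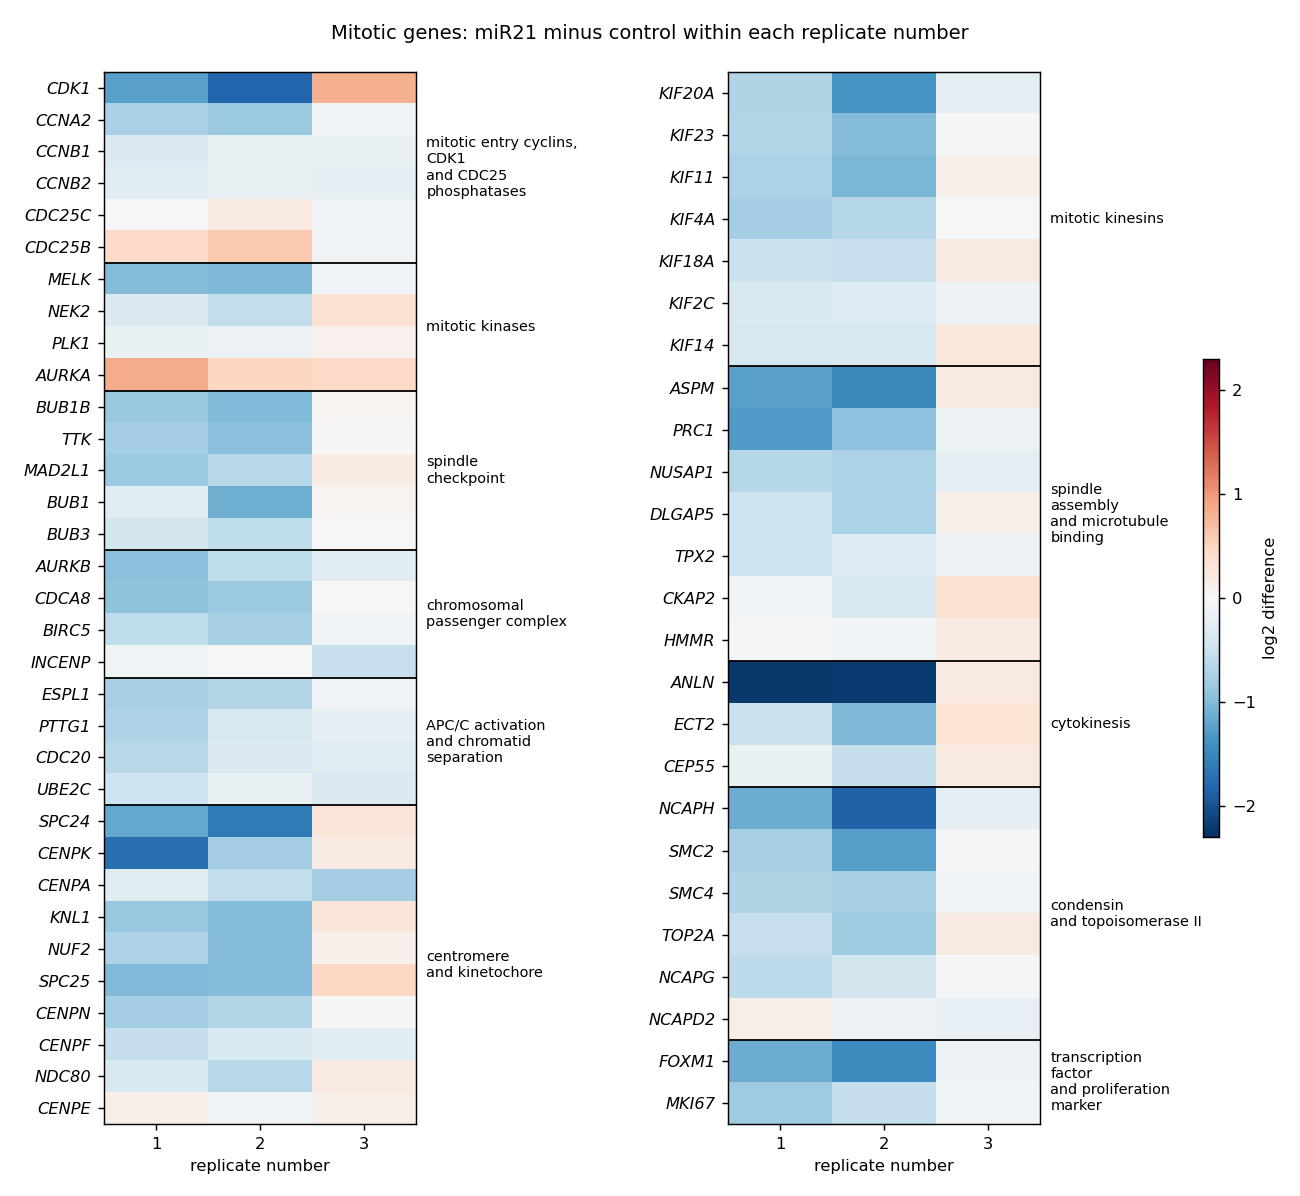
Log2 difference, miR21 minus control, of each of the 58 mitotic genes (rows, grouped by role) within replicate numbers 1, 2 and 3 (columns), blue for lower and red for higher with miR21. The columns of numbers 1 and 2 are mostly blue (medians -0.65 and -0.67), that of number 3 is pale (median -0.02), and AURKA is red in all 3.

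**Figure D2:**
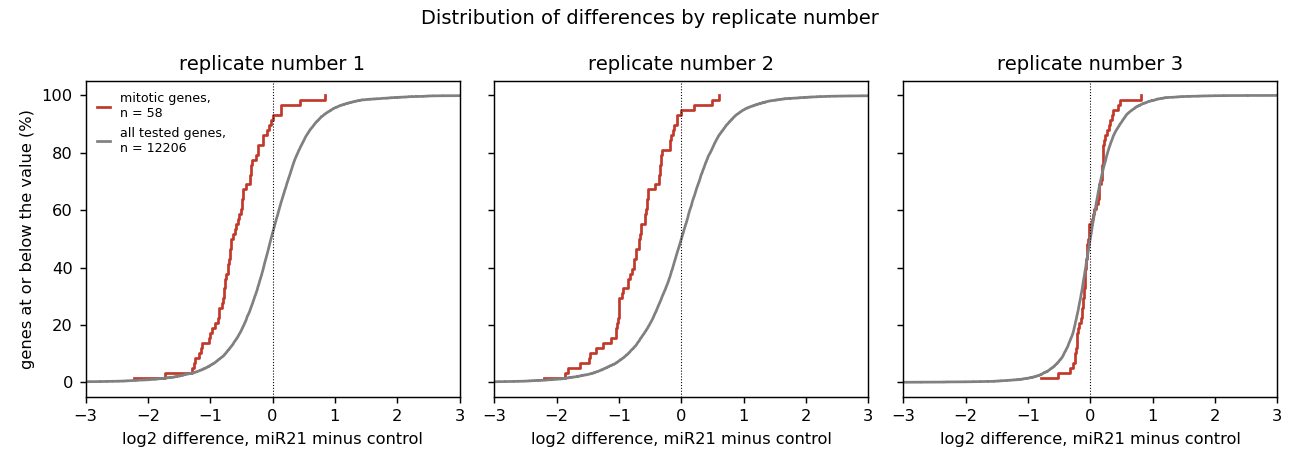
Cumulative share of genes (y axis, percent) at or below a log2 difference, miR21 minus control (x axis), within each replicate number, for the 58 mitotic genes (red) and all 12206 tested genes (grey). The red curve lies left of the grey one over most of its length in numbers 1 and 2 and close to it in number 3.

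The same direction in all 3 numbers was shared by 29 of the 58 genes on the lower side, against 20.9% of tested genes, and by 1 on the higher side, against 20.3%. A further 24 were lower in numbers 1 and 2 and higher in number 3, against 17.5%. Centring each array on its median turned the 29 into 13, against 12.1% of tested genes, and left 50 of the 58 below 0, against 40.0%, and it put 4 on the higher side in all 3 numbers, against 30.9%. Quantile normalization gave 27 lower in all 3 numbers, against 20.4%, 2 higher, against 21.5%, and 52 below 0, against 49.3%. Across the 58 genes the differences of numbers 1 and 2 had a Pearson r of 0.82, those of numbers 1 and 3 of -0.11 and those of numbers 2 and 3 of -0.25. The genes of 1 number share their arrays, and these values are descriptions. The signed difference had little relation to the mean signal of the gene (r = 0.11 over the 58).

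Mitotic entry is driven by cyclins A and B bound to CDK1 and by the CDC25 phosphatases that activate it. Of the 6 genes, 4 lay below 0, against 51.2% of tested genes, with a median log2 difference of -0.22. The cyclin A gene CCNA2 had signals of 797, 823 and 2996 on the miR21 arrays of numbers 1, 2 and 3, against 1331, 1495 and 3143 on the control arrays. Both arrays of number 3 were the highest of their groups, and the difference was -0.56 (SE 0.59), or -0.74, -0.86 and -0.07 in numbers 1, 2 and 3. A second bright CCNA2 probe set differed by -0.54, with -0.76, -1.20 and 0.33 in numbers 1, 2 and 3. It was thus higher in number 3. CDK1, the mitotic kinase itself, had 3404, 2363 and 5416 on its miR21 arrays, against 8133, 8329.7 and 3067 on the control arrays. Its control array of number 3 was low, so that the gene was higher with miR21 there, and the mean difference was -0.75 (SE 0.49). A pair of other bright CDK1 probe sets differed by -0.78 and -0.79 on average and by -0.10 and -0.15 in number 3, where the probe set used gave 0.82. CDC25B, a phosphatase that starts CDK1 activation, had signals of 17955, 18807 and 12443 on the miR21 arrays, against 13191, 12393 and 13199 on the control arrays. It was higher with miR21 in numbers 1 and 2 and slightly lower in number 3 (0.32, SE 0.26). The B-type cyclin genes CCNB1 and CCNB2 differed by -0.22 and -0.21, lower in all 3 numbers, and CDC25C by 0.05. A second CCNB1 probe set, of lower signal, differed by -0.61, with -0.68, -1.44 and 0.30 in numbers 1, 2 and 3, and so was higher in number 3.

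Among 4 further mitotic kinase genes the directions parted. AURKA, whose kinase builds the spindle poles, was the 1 gene of the 58 that was higher in all 3 numbers. Its signals were 2494, 4769 and 6391 on the miR21 arrays, against 1389, 3381 and 4712 on the control arrays. Each miR21 array exceeded the control array of its own number, while the levels of the numbers lay so far apart that the groups overlapped. The log2 difference was 0.59, a signal 1.51-fold higher, with an SE of 0.54 without the block and 0.14 with it (adjusted p 0.128 in limma with the block, higher in 3 of 3 numbers). Without control replicate 1 the difference was 0.086, and without miR21 replicate 1 it was 0.98. A second bright AURKA probe set also differed by 0.59, with 0.43, 0.83 and 0.50 in numbers 1, 2 and 3. MELK, a kinase gene of proliferating cells, had signals of 3358, 3587 and 8920.3 on the miR21 arrays, against 6714, 7382 and 9339 on the control arrays, a difference of -0.70 (SE 0.42). PLK1, which acts from mitotic entry to cytokinesis, differed by -0.06 and the centrosome kinase gene NEK2 by -0.18. TPX2, the microtubule protein that activates Aurora A, stood at -0.30, opposite in sign to AURKA.

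The 5 spindle checkpoint genes all lay below 0 (51.2% of tested genes did), from -0.62 to -0.34. Of them, 2 were lower in all 3 numbers, against 20.9% of tested genes, and their median in number 3 was 0.04. BUB1B, which encodes the checkpoint protein BUBR1, had 2584, 2534 and 4974 on its miR21 arrays, against 4757, 5134 and 4841 on the control arrays. The control arrays were close together, the miR21 arrays of numbers 1 and 2 lay well below them and that of number 3 among them (-0.62, SE 0.33). TTK, the kinase that recruits the checkpoint to kinetochores, had signals of 1120.2, 716 and 1592 on the miR21 arrays, against 1919, 1389.6 and 1628 on the control arrays, with a difference of -0.59 (SE 0.36). MAD2L1, which with BUBR1 inhibits CDC20, differed by -0.44, BUB1 by -0.44 and BUB3 by -0.34.

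Aurora B, INCENP, survivin and borealin form the chromosomal passenger complex, which corrects faulty attachments and directs cytokinesis. All 4 of its genes were lower in all 3 numbers, against 20.9% of tested genes, with a median of -0.54. Some of these differences were close to 0: -0.0041 for INCENP in number 2, and -0.012 for CDCA8 and -0.10 for BIRC5 in number 3. The Aurora B gene AURKB had 663, 1271 and 1713 on its miR21 arrays, against 1293, 1908 and 2034 on the control arrays. Every miR21 array lay below the control array of its number, with differences of -0.96, -0.59 and -0.25 in numbers 1, 2 and 3 and a mean of -0.60 (SE 0.41), opposite in sign to AURKA. CDCA8, which encodes borealin, had signals of 1243, 1842 and 3996 on the miR21 arrays, against 2361, 3319.8 and 4029 on the control arrays, a difference of -0.60 (SE 0.46). A second AURKB probe set, of lower signal, differed by -0.45 and was higher in number 3 (0.24). The survivin gene BIRC5 differed by -0.48, and 3 other BIRC5 probe sets by -0.62, -0.38 and -0.15. INCENP, the scaffold, differed by -0.20, nearly all of it in number 3 (-0.52).

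Anaphase begins when the APC/C, with CDC20 and the ubiquitin-conjugating enzyme UBE2C, marks securin for destruction and frees separase. These 4 genes were lower in all 3 numbers, against 20.9% of tested genes, and lay close together, from -0.51 to -0.33. ESPL1, the separase gene, had 979, 1664 and 3033 on its miR21 arrays, against 1664, 2664 and 3232 on the control arrays (-0.51, SE 0.47), and without miR21 replicate 1 the difference was -0.11. PTTG1, the securin gene, had signals of 4866, 12927 and 19144 on the miR21 arrays, against 7915, 16396 and 22225 on the control arrays. In both groups number 1 was lowest and number 3 highest, so the groups overlapped widely. The difference was -0.42 (SE 0.58), and without miR21 replicate 1 it was 0.14. CDC20 differed by -0.42 and UBE2C by -0.33.

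Centromere and kinetochore genes had a median of -0.52, with 9 of 10 below 0, against 51.2% of tested genes. Only 2 of the 10 were lower in all 3 numbers, near the 20.9% of tested genes. CENPA, the histone H3 variant that marks centromeres, had 2006, 2500.0 and 3155 on its miR21 arrays, against 2422, 3711 and 5480.2 on the control arrays. It was lower in every number and furthest apart in number 3 (-0.27, -0.57 and -0.80 in numbers 1, 2 and 3). Its mean difference was -0.55 (SE 0.37). KNL1, the scaffold that binds BUB1, had signals of 1498, 999 and 2194 on the miR21 arrays, against 2729.8, 1997 and 1810.3 on the control arrays. Its difference was -0.53 (SE 0.37), lower in numbers 1 and 2 only. NUF2, a subunit of the NDC80 complex that grips microtubules, had 1009, 438 and 858 on its miR21 arrays, against 1651, 875 and 788 on the control arrays (-0.53, SE 0.44). The other genes of that complex were likewise lower in numbers 1 and 2, with SPC24 at -0.84, SPC25 at -0.51 and NDC80 at -0.27, each higher in number 3. CENPE, a kinetochore kinesin, had signals of 1041, 1403 and 1865 on the miR21 arrays, against 949.8, 1476 and 1699.7 on the control arrays, and differed little (0.06, SE 0.36). Its sign turned with array weights (-0.0082) and without control replicate 1 (-0.18) or miR21 replicate 3 (-0.14). CENPF and CENPN stood at -0.38 and -0.48. CENPK, a subunit of the inner kinetochore, had 941, 68.9 and 101 on its miR21 arrays, against 3117, 119 and 88.8 on the control arrays, so that its level varied far more with the number than with the precursor (-0.78, SE 1.50). It is shown in full because of these levels, after its values were seen.

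**Figure D3:**
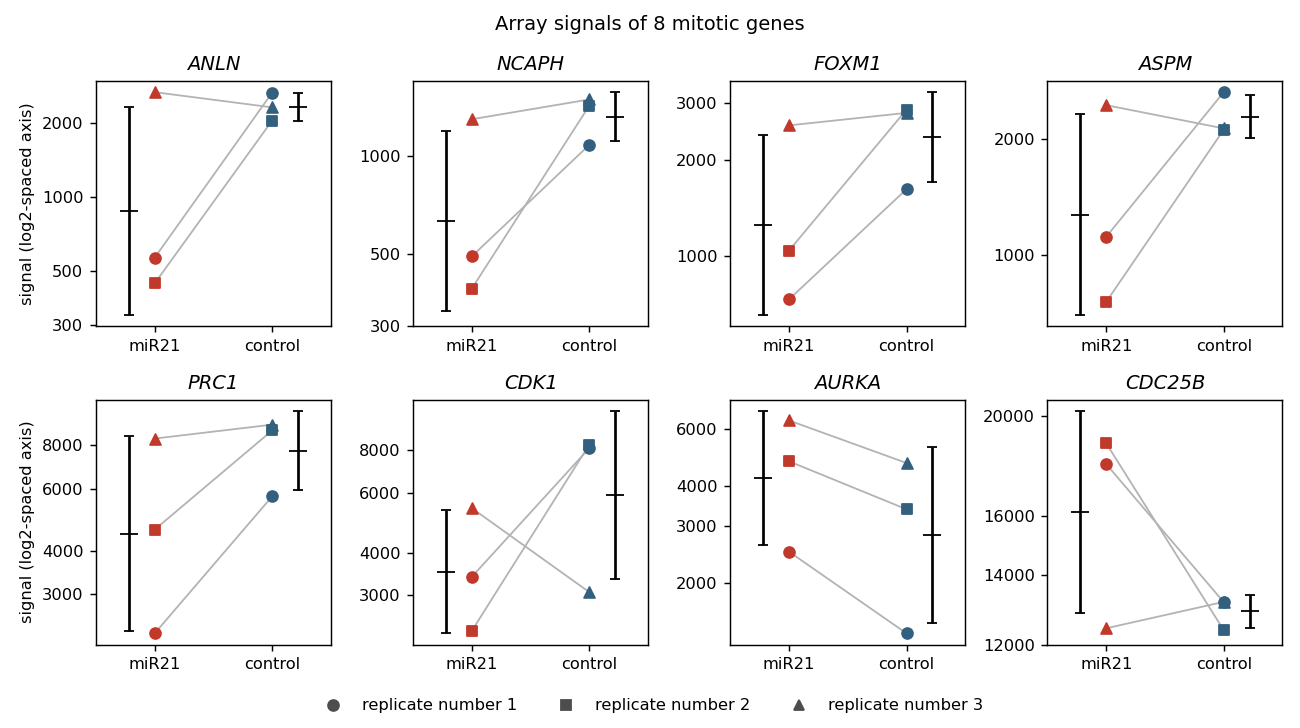
Signal on each array (y axis, log2-spaced) of 8 mitotic genes on miR21 arrays (red, left) and control arrays (blue, right), with lines joining arrays of the same replicate number and bars for the mean ± SD of the log2 signals (n = 3 per group). In ANLN, NCAPH, FOXM1, ASPM and PRC1 the miR21 arrays of numbers 1 and 2 lie low and that of number 3 lies near the control arrays, and in AURKA all 3 lines slope the other way.

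The mitotic kinesins were below 0 in 7 of 7 cases (51.2% of tested genes), with a median of -0.49 and 4 lower in all 3 numbers (20.9%). KIF20A, needed for the central spindle, had signals of 1033, 1792 and 5503 on the miR21 arrays, against 1659.8, 4615 and 6423 on the control arrays. Its difference was -0.76 (SE 0.71), widest in number 2 (-1.37), and without miR21 replicate 1 it was -0.22. KIF4A, a chromokinesin, had 1299, 1534 and 2838 on its miR21 arrays, against 2245, 2426 and 2868 on the control arrays, with -0.49 (SE 0.36). KIF11, the motor that pushes the spindle poles apart, had signals of 697, 224 and 476 on the miR21 arrays, against 1148, 463 and 432 on the control arrays. The arrays of number 1 were the highest of both groups, and the difference was -0.54 (SE 0.55), or -0.087 without miR21 replicate 2. KIF23, a central spindle motor, differed by -0.57, the chromosome congression motor KIF18A by -0.27, the microtubule depolymerase KIF2C by -0.26 and KIF14 by -0.16.

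Spindle assembly and microtubule-binding genes ranged from -0.84 to 0.03. ASPM, a spindle pole protein gene, had 1116, 757 and 2444 on its miR21 arrays, against 2641, 2112 and 2128 on the control arrays. The 3 control arrays and the miR21 array of number 3 formed 1 level, with the other miR21 arrays below it (-0.84, SE 0.45, 1.79-fold lower). PRC1, which bundles microtubules of the central spindle, had signals of 2322, 4593 and 8357 on the miR21 arrays, against 5715, 8814 and 9158 on the control arrays. It was lower in every number, with differences of -1.30, -0.94 and -0.13 in numbers 1, 2 and 3 and a mean of -0.79 (SE 0.48). NUSAP1, a microtubule bundler near chromosomes, had 3932, 5040.2 and 7982 on its miR21 arrays, against 6221, 8363 and 9221 on the control arrays, a difference of -0.53 (SE 0.34). A second NUSAP1 probe set, of lower signal, differed by -0.44 and was higher in number 3 (0.33). DLGAP5, which stabilises kinetochore fibres, differed by -0.36, while HMMR and CKAP2 were near 0 (0.03 and -0.02).

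Cytokinesis genes held the lowest difference of the 58. ANLN, which encodes the actin-binding scaffold anillin of the cleavage furrow, had signals of 565, 445 and 2660.4 on the miR21 arrays, against 2648, 2040.3 and 2308 on the control arrays. The control arrays lay within a narrow range, the miR21 arrays of numbers 1 and 2 far below it and that of number 3 above it. The log2 difference was -1.41, a signal 2.65-fold lower, with an SE of 0.64 without the block and 0.44 with it (adjusted p 0.167 in limma with the block, lower in 2 of 3 numbers). A second ANLN probe set gave -1.91, -2.18 and 0.11 in numbers 1, 2 and 3. ECT2, the exchange factor that activates RhoA at the furrow, had 3854, 761 and 1348 on its miR21 arrays, against 5468, 1558 and 1083 on the control arrays. Its sign was not stable (-0.41, SE 0.76): without control replicate 1 it was 0.28 and without miR21 replicate 2 it was 0.12. CEP55, which recruits the abscission machinery, differed by -0.16.

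Condensin compacts the chromosomes, and topoisomerase II untangles them. All 6 genes lay below 0 (51.2% of tested genes) and 4 were lower in all 3 numbers (20.9%). NCAPH, the subunit that closes the condensin I ring, had signals of 491, 391 and 1295 on the miR21 arrays, against 1080.4, 1426 and 1489.8 on the control arrays. It had the smallest unadjusted p of the 58 without the block, and its difference was -1.07 (SE 0.47), 2.1-fold lower. SMC2, a core ATPase, had 831, 397 and 1041 on its miR21 arrays, against 1415, 951 and 1076 on the control arrays (-0.69, SE 0.42). SMC4, its partner, had signals of 5007, 5268 and 9049 on the miR21 arrays, against 8069.9, 8957 and 9586 on the control arrays (-0.51, SE 0.31), with other probe sets at -0.46 and 0.03. NCAPG differed by -0.36, NCAPD2 by -0.05 and TOP2A by -0.39.

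FOXM1, the transcription factor of many late cell cycle genes, had 735, 1043 and 2557 on its miR21 arrays, against 1619, 2864 and 2797 on the control arrays. It was lower in all 3 numbers, with differences of -1.14, -1.46 and -0.13 in numbers 1, 2 and 3, and differed by -0.91 on average (SE 0.50, 1.88-fold lower). MKI67, which encodes the proliferation marker Ki-67, had signals of 1353, 4631 and 10247 on the miR21 arrays, against 2379, 6729.8 and 10988 on the control arrays. It too was lower in all 3 numbers (-0.48, SE 0.81), but its level varied widely with the number, and without miR21 replicate 1 the difference of the means was 0.30 and without control replicate 3 it was 0.0009. The 3 other MKI67 probe sets differed by -0.85, -0.77 and -0.68.

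Other probe sets of the same genes gave a second reading from the same arrays. The 58 genes had 116 probe sets, of which 99 lay above the filter. Of these, 41 were not the brightest of their gene, and they belong to 28 genes. Those of CDK1, CCNA2, CCNB1, AURKA, AURKB, BIRC5, NUSAP1, ANLN, SMC4 and MKI67 given above are included. Of the 41, 36 differed below 0, with a median of -0.45, and 39 had the sign of the brightest probe set of their gene. The exceptions were 1 dim probe set each of CCNB2 (0.36) and SMC4 (0.03). Among the 28 genes, 23 had every probe set above the filter below 0, and 3 had every one above 0: AURKA, CDC25C and HMMR. Probe sets below the filter were divided, with 8 below and 9 above 0. As probe sets of a gene share the sample, this agreement bears on the probes and not on the replicates.

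**Figure D4:**
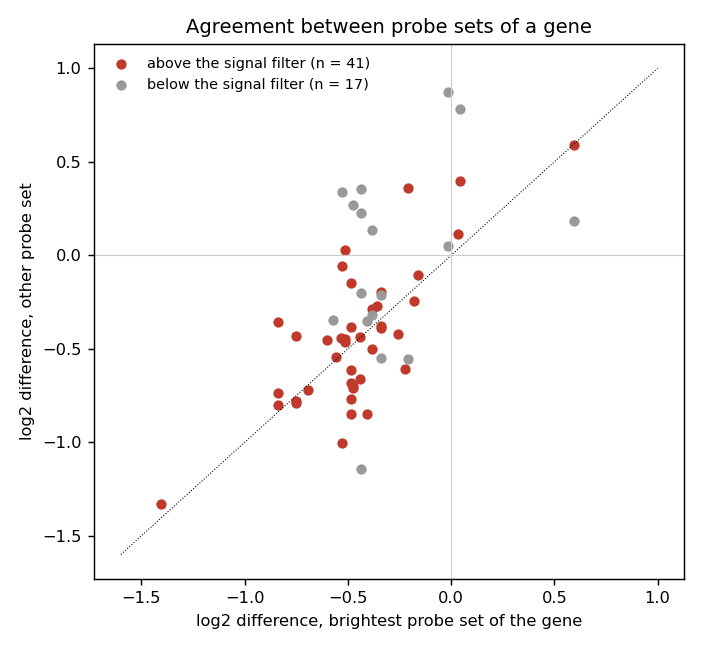
Log2 difference, miR21 minus control, of further probe sets of the mitotic genes (y axis) against that of the brightest probe set of the same gene (x axis), for 41 probe sets above the signal filter (red) and 17 below it (grey), with the line of equality dotted. Red points lie mostly in the lower left, with AURKA (0.59 on both axes) farthest to the upper right, and grey points scatter.

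Levels of single genes also set number 1 apart, in both groups and both directions. On the control array of number 1, 9 of the 58 genes were over 1 log2 unit higher than the mean of the control arrays of numbers 2 and 3, and 11 were over 1 log2 unit lower. The 9 were CENPK, ECT2, KIF23, NEK2, SPC25, CKAP2, TOP2A, KIF11 and KIF18A, from 30.3-fold (CENPK) to 2.51-fold (KIF18A). The 11 were MKI67, KIF20A, CDC20, NCAPG, AURKA, UBE2C, SPC24, PTTG1, BIRC5, CCNB2 and CENPF, from 3.61-fold (MKI67) to 2.13-fold (CENPF) lower. The miR21 array of number 1 stood apart in the same direction by over 1 log2 unit for all 9 and all 11. Such genes were not counted over the whole table. Over all 12206 tested genes the deviations of the 2 arrays of number 1 from their group means had an r of 0.899. The pattern is therefore not particular to the mitotic genes. Averaged over the 58 genes, the log2 signal was 10.56, 10.43 and 11.35 on the miR21 arrays of numbers 1, 2 and 3, against 11.17, 11.12 and 11.33 on the control arrays. The lowest of the 6 arrays was miR21 number 1 for 27 genes, miR21 number 2 for 25 and miR21 number 3 for 0, against 4, 1 and 1 for the control arrays. Lowest arrays were not counted over all tested genes, so these counts are not shown to be particular to the mitotic genes.

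Other genes of the same machinery, outside the 58, also lay mostly below 0. Of all tested genes, 51.2% lay below 0 and 20.9% were lower in all 3 numbers. Of 30 other centromere and kinetochore genes measured, of 32 listed, 28 lay below 0, 17 were lower in all 3 numbers and the median was -0.62. Examples are ZWINT, a kinetochore scaffold gene (-0.72, SE 0.41), and SKA2, a subunit of a microtubule-coupling complex (-0.88, SE 0.44). Of 36 other kinesin, kinase and spindle genes (38 listed), 32 lay below 0 (median -0.35), with the cytokinetic kinesin KIF20B at -0.77 (SE 0.46). HAUS6, a subunit of augmin, which nucleates microtubules within the spindle, went the other way at 1.07 (SE 0.52), higher in all 3 numbers. No gene of these lists or of those that follow passed limma over all genes in either direction, with or without the block.

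Lists of APC/C, cohesin, contractile ring and abscission, and DREAM and MuvB genes had medians nearer to 0. The 16 measured APC/C genes (17 listed) had a median of -0.15, 10 below 0, with ANAPC15 at -0.74 and ANAPC2 at -0.53. The 13 cohesin genes had a median of -0.22, 10 below 0, with the acetyltransferase gene ESCO2 at -0.96 and the cohesin stabiliser gene CDCA5 at -0.61. The 18 contractile ring and abscission genes (21 listed) had -0.11, 10 below 0, with the myosin genes MYH9 at -0.71 and MYH10 at -0.69. The 10 genes of the DREAM and MuvB complexes and their partners had -0.02, 6 below 0, with the B-MYB gene MYBL2 at -0.91 and TFDP1, a partner of E2F, at -1.26. DNA replication genes, which act earlier in the cycle, had a lower median than the mitotic genes: -0.93 over 33 genes (35 listed), with TYMS at -1.46 and GINS1 at -1.41. All 33 lay below 0, against 51.2% of tested genes, and 24 were lower in all 3 numbers, against 20.9%. Their medians within numbers 1, 2 and 3 were -1.24, -1.31 and -0.15. The difference between the lists was not tested.

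**Figure D5:**
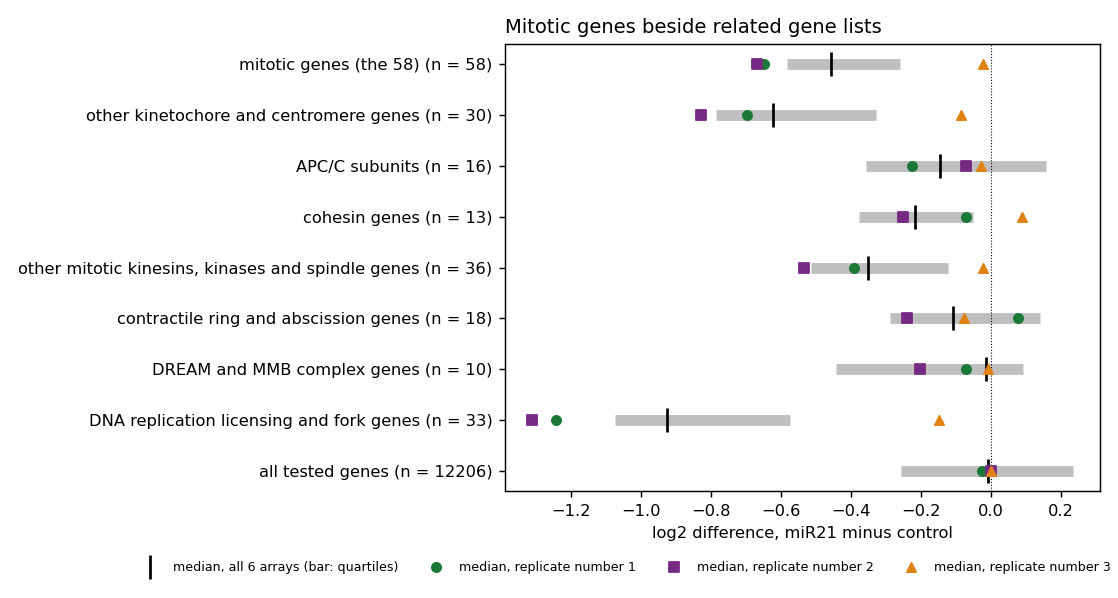
Median log2 difference, miR21 minus control (x axis), of the 58 mitotic genes, 7 related gene lists and all tested genes: black marks for all 6 arrays with grey bars from the lower to the upper quartile, and coloured points for the median within each replicate number. Kinetochore, spindle and DNA replication genes lie left of 0 in numbers 1 and 2, and in number 3 their medians are -0.09, -0.02 and -0.15.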

How the data were processed

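Biotin-labelled RNA amplified from each sample was read on 1-colour Affymetrix arrays, per the labels' protocols. The deposited values are linear intensity signals from MAS5, per the submitters' processing notes, with no version or settings given there. Every array had a trimmed mean (2% off each end) of 500.1, which hides any change common to most genes, and dim signals are noisy on the log scale. Of 54675 probe sets, 41091 name 1 gene. Signals were taken to log2 with no pseudocount and fitted in R 4.3.3 by limma 3.58.1, with a trend in the eBayes prior and Benjamini-Hochberg adjustment over 12206 genes. On simulated data the fits with and without the replicate block both returned the differences put in without bias, but the fit without it called none of them, whereas the fit with it called most of the larger ones. The simulated noise was the same for every gene and each difference the same in all replicate numbers, which the data do not share. The number of arrays limits the precision.

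Replicate numbers come from the titles. Deviations from the group means correlated with r = 0.899, 0.638 and 0.635 between same-numbered arrays of numbers 1, 2 and 3. Across numbers 2 and 3, r was 0.411 and 0.283, and between number 1 and the others it was negative. Each deviation is from a mean that includes the array itself, which pushes r between different numbers down. The negative values are therefore no separate evidence. By the r of same-numbered arrays, these deviated together, most clearly in number 1, but the labels do not say whether they are pairs. The planned fit has no block, and the fit with it is an alternative.

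The genes and lists were chosen with earlier results of these data known. Named in full are, per role, the 2 genes of smallest unadjusted p (3 in roles of 6 or more), any gene passing the planned fit or the block fit on all arrays (none did), the 3 highest differences and, of each other list, the 2 of smallest p. Other genes appear by role, with their difference.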

Additional observations from a re-analysis of the deposited data

How the results depend on the processing

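The alternatives were the replicate block, array weights, median centring, quantile normalization, a signal raised by 16 before log2, no signal filter or one at the upper quartile, a constant variance prior, the mean or the most variable probe set of a gene, each array left out, and both arrays of a number left out with the block. The median over the mitotic genes stayed below 0 in all of them, from -0.69 without miR21 replicate 3 to -0.27 without miR21 replicate 1, and 0 mitotic genes passed except without number 3, where 44 did. Genes passing over the whole table numbered 0 in the planned fit, 4 with the replicate block, 41 in the block fit without number 1 and 4099 without number 3; leaving out 1 array gave 0 each time. Mitotic genes lower in all numbers were 29 (20.9% of tested genes), 13 with median centring (12.1%) and 53 when number 3 was left out, where only 2 numbers count. Taken singly, numbers 1 and 2 had 52.1% and 50.0% of tested genes lower, so the 53 is not comparable with the 20.9%. Those with groups that did not overlap were 0 (6.65% of tested genes), 1 with quantile normalization (7.36%), 1 with the mean of probe sets (6.6%), 9, 3 and 23 in the block fits without numbers 1, 2 and 3 (26.3%, 13.7% and 28.9% of tested genes), and 0 to 22 with 1 array left out, the 0 without miR21 replicate 2 (9.61%), the 22 without miR21 replicate 3 (21.5%) and 7 without control replicate 1 (16.5%). Of 28 genes named by rule, 23 kept their sign throughout. CENPE turned with array weights (-0.0082) and ranged from -0.18 to 0.28 with 1 array left out, ECT2 from -1.05 to 0.28, MKI67 from -1.16 to 0.30 and PTTG1 from -0.84 to 0.14, and SMC4 turned with its most variable probe set (0.026). Apart from these counts, the block changed no call. The arrays' number limits every value, and the causes of these changes were not tested.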

Other observations

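A few genes of the mitotic lists differed most in number 3, where most were near level. TFDP1 differed by -1.02, -0.68 and -2.10 in numbers 1, 2 and 3, ESCO2 by -0.72, -0.84 and -1.30, and CENPA by -0.27, -0.57 and -0.80. HAUS6 differed by 1.20, 0.78 and 1.23, about as much in number 1 as in number 3. They were chosen after their values were seen, and none passed limma.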
